A study of Mus musculus with 5 samples.

Results

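The levels of 44 genes of antioxidant and redox defence were examined in sympathetic neurons of E14.5 mouse embryos. All embryos carried *Isl1-Cre*, and they were *Hif1a loxP/+* (control) or *Hif1a loxP/loxP* (*Hif1aCKO*). The genes were taken as a fixed list of symbols by function. They fell into 9 role groups, namely superoxide dismutases, catalase and glutathione peroxidases, peroxiredoxins, the thioredoxin system, glutaredoxins, cystine uptake and glutathione synthesis, glutathione S-transferases, regulators, and enzymes of heme, quinone, and NADPH metabolism. Of the 44 genes, 42 had a row among the 20224 genes of the count table, whereas *Sod3* and *Gsta4* were not analysed here. The filter on low counts kept 41 of the 42. *Gpx8* did not pass it.

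The libraries came from 2 control samples (replicates 5 and 6) and 3 *Hif1aCKO* samples (replicates 3, 4, and 5). Each held 100 cells from stellate ganglia and the thoracic sympathetic chain of embryos from non-diabetic mothers, sorted for both eGFP and tdTomato. Both groups carried 1 *Isl1-Cre* allele, a knock-in into *Isl1*, together with the *Cre*-dependent reporter tdTomatoAi14 and the *Prph-eGFP* transgene, which marks peripheral neurons. *Hif1aCKO* embryos were *Hif1a loxP/loxP*, so that both alleles could be deleted in *Isl1-Cre* cells. The sorted control embryos were *Hif1a loxP/+* with *Isl1Cre* and had therefore 1 floxed allele in the same cells, although the general description of the line defines controls as animals without *Isl1-Cre*. *Isl1-Cre* also acts in other *Isl1* lineages of the embryo, and the lines were on mixed backgrounds (C57BL/6J;C57BL/6N and FVB). The labels do not say how many embryos gave each library, so the p-values measure the spread between these samples.

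Reads counted on genes summed to between 8254211 and 9700887 per library. *Hif1a* itself did not separate the groups, with 2086 and 1584 normalized counts in the controls (replicates 5 and 6, the order used throughout) against 2747, 1757, and 2135 in the *Hif1aCKO* libraries (replicates 3, 4, and 5). The counts cover all exons, whereas only exon 2 is floxed, so the deletion could not be read from them. *Xist*, transcribed from the inactive X chromosome, was found in 1 library of each group, with 3974 counts in control replicate 5 and 4597 counts for *Hif1aCKO* replicate 3, against at most 3 elsewhere. The defining neuronal genes were present in every library, and the summed level of 19 sympathetic neuron markers was 16300 and 19100 CPM (counts scaled to equal library totals) in the controls and 15100, 14500, and 14800 in *Hif1aCKO*. Their groups did not overlap for 10 genes below and 2 above the controls, beside 12.9% of all genes tested in each direction. The 15 cycling cell markers were summed to 3400 and 2810 CPM in the controls and 4450, 5680, and 4460 in *Hif1aCKO*, with 13 of 15 above both controls, beside the same 12.9% of all genes.

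*Hif1aCKO* replicate 3 stood apart in markers of Schwann cell precursors, the glial progenitors that lie along the same nerves. *Fabp7*, a fatty acid binding protein of glia, had 926 counts there, 9 in *Hif1aCKO* replicate 5, and 0 in the other libraries. *Cdh19* had 51 counts in replicate 3 and 0 in the others, and *Erbb3* had 50 against at most 2. The 5 markers of this list with a row summed to 135 CPM in *Hif1aCKO* replicate 3 and to between 3.40 and 6.22 in the other 4 libraries. *Gpx8*, a peroxidase of the endoplasmic reticulum, followed the same library, with 22 counts in *Hif1aCKO* replicate 3, 1 in control replicate 5, and 0 in the others. The 2 macrophage markers with a row (*Csf1r* and *Adgre1*) summed to 5.28 and 9.28 CPM in the controls and 15.0, 21.4, and 21.1 in *Hif1aCKO*. The endothelial, erythroid, and mesenchymal lists each summed to at most 6.31. The part of these markers in the results below was not tested, and values without *Hif1aCKO* replicate 3 are given where a result rests on it.

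Cells make superoxide and hydrogen peroxide when oxygen is reduced by the respiratory chain and by oxidases, and catecholamine neurons make more of it when monoamine oxidase breaks down their transmitter. Superoxide dismutases turn superoxide into hydrogen peroxide. Catalase, glutathione peroxidases, and peroxiredoxins remove the peroxide. Glutathione and thioredoxin, both kept reduced with NADPH, return the glutathione peroxidases and peroxiredoxins to their active form. Many of the genes are induced by NRF2 (*Nfe2l2*), which KEAP1 marks for degradation until it is oxidized. HIF-1 alpha, the oxygen-regulated subunit of HIF-1, controls glycolysis and mitochondrial use of oxygen, which links it to the same chemistry.

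The main test called no antioxidant gene as changed between the genotypes, and a second tool called 1, *Slc7a11*. With the quasi-likelihood test of edgeR, 0 of the 41 genes passed the thresholds (adjusted p-value below 0.05, absolute log2 fold change over 0.3, mean of at least 50 normalized counts), and neither did any of the 15032 genes tested (0%). The smallest adjusted p-value among the 41 was 0.599, and among all genes 0.446. Without adjustment, 2 of the 41, *Slc7a11* and *Txnrd1*, had a p-value under 0.05, beside 7.67% of all genes tested. DESeq2 with the same thresholds called *Slc7a11* alone, beside 60 of the 15477 genes for which it gave an adjusted p-value (0.388%). For a single gene, the smallest exact permutation p-value that 2 against 3 libraries can give is 0.1. In these bulk libraries, fewer cells of a type and less RNA per cell cannot be told apart.

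The fold changes of the group were centred near 0. Of the 41 genes, 19 had a higher and 22 a lower mean level in *Hif1aCKO*, and the median log2 fold change was -0.019, whereas that of all genes tested was 0.012. All 3 *Hif1aCKO* libraries lay above both controls for 3 genes (*Txnrd1*, *Prdx4*, and *Gss*), which is 7.32% of the 41 against 12.9% of all genes. They lay below both controls for 4 genes (*Gpx1*, *Prdx3*, *Gstm1*, and *Hmox2*), which is 9.76% against 12.9% of all genes. The 42 genes together took 0.531% and 0.506% of all counts in the controls and 0.541%, 0.509%, and 0.559% in *Hif1aCKO*, so that the groups overlapped.

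The intervals of the fold change were narrow for the abundant genes and wide for the scarce ones. The 95% interval of the fold change lay inside 2-fold in either direction for 27 of the 41 genes and inside 1.5-fold for 14. Among the 16 genes with a mean of at least 1000 normalized counts, standard errors of the log2 fold change ran from 0.11 to 0.20 and fold changes from -0.32 to 0.51, and 13 had an interval inside 1.5-fold. The 5 genes tested with a mean under 150 had standard errors from 0.46 to 1.8, and the interval of *Gclc* (-2.07 to 3.46) spanned changes of several fold in both directions. Intervals included 0 for 39 of the 41 genes.

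**Figure D1:**
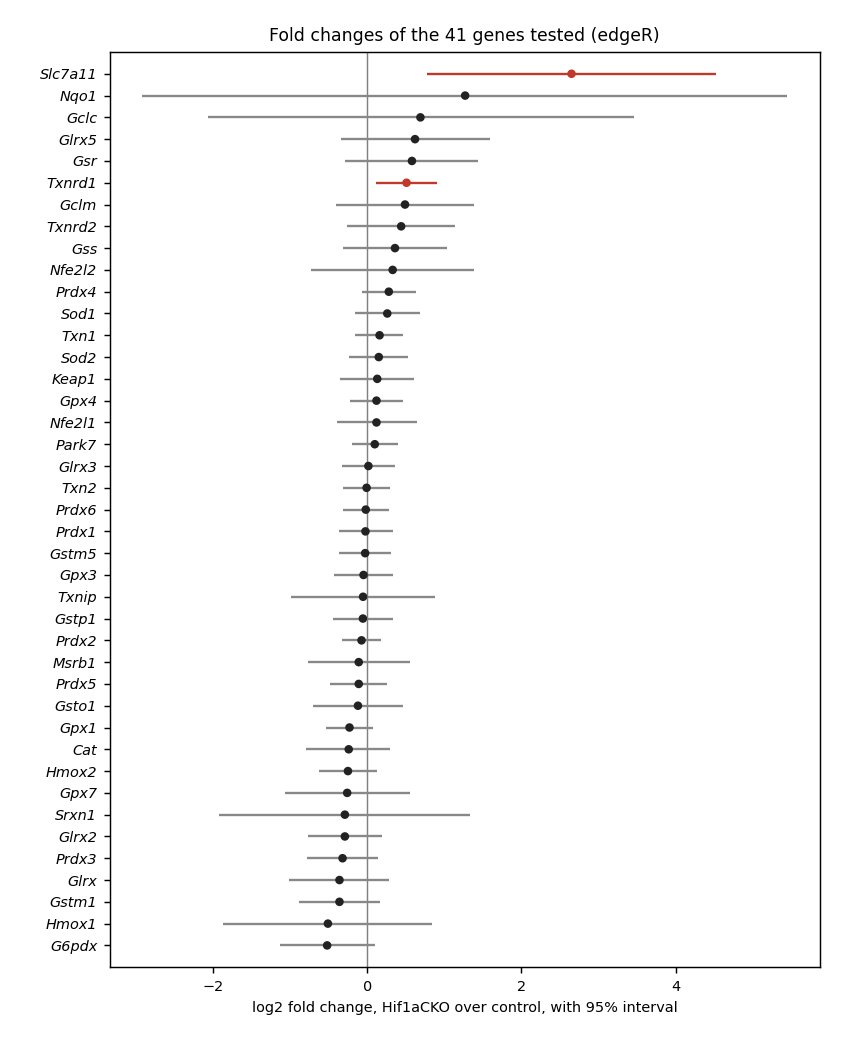
Log2 fold change of each of the 41 genes tested, *Hif1aCKO* over control, with its 95% interval from the edgeR quasi-likelihood fit (x axis, log2 units). The intervals of *Slc7a11* and *Txnrd1*, drawn in red, exclude 0, the other 39 include it, and *Nqo1* and *Gclc* have the widest.

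Levels spanned a wide range and rested on few genes. Counts per kilobase of annotated exon were used to compare genes, because long transcripts collect more reads. On this scale *Txn1*, cytosolic thioredoxin, had the highest level (2897, mean of 5 libraries), followed by *Prdx2* (2811), *Gpx1* (1537), *Prdx1* (1367), and *Park7* (1288). These 5 genes held 51.7% of the summed level per kilobase of the 42 genes, and the first 10 held 72.3%. The 6 peroxiredoxins alone held 35.7%. *Txn1* and *Prdx2* could not be ordered, since *Txn1* was at 2712 ± 266 per kilobase in the controls (SD, n = 2) and *Prdx2* at 2898 ± 84.1 (SD, n = 2), and per kilobase of coding sequence *Prdx2* (14430) stood above *Txn1* (9666). Other ranks and the shares also depend on the length used. Per kilobase of coding sequence *Prdx6* (4532) stood above *Gpx1* (3674). Per kilobase of the longest transcript *Prdx2* (5318) and *Park7* (3407) stood above *Txn1* (2897). The top gene stayed the same in 7 of the 9 role groups by coding length and in 8 by longest transcript. At the low end, per kilobase of exon, stood *Gclc* (13.9), *Slc7a11* (12.9), *Nqo1* (11.7), and *Gpx8* (4.70). For 29 of the genes, the highest library was under 2-fold above the lowest.

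**Figure D2:**
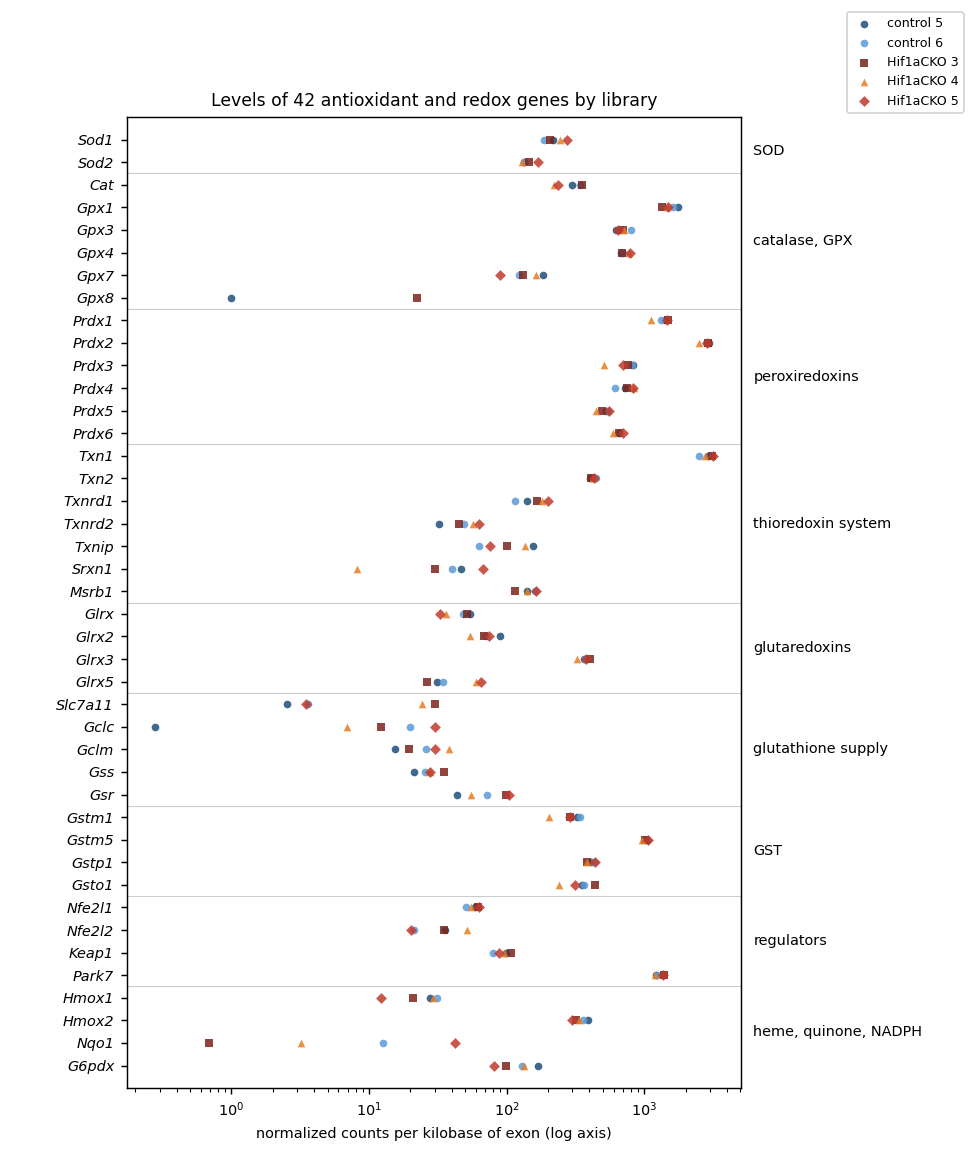
Normalized counts per kilobase of exon (x axis, log scale) of the 42 genes with a row, by role group, with 1 point per library. The 4 values of 0, which belong to *Gpx8* and *Nqo1*, are not drawn, and for most genes the 5 points lie close together while the means of different genes run from 4.70 to 2897.

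Cystine uptake and glutathione synthesis was the role group with the largest differences. Its 5 genes all had a positive log2 fold change, with a median of 0.58, but 0 were called by edgeR and only *Gss* had groups that did not overlap. All 5 were lower in control replicate 5 than in control replicate 6. The group's median deviation from the mean of each gene (log2) was -0.697 in control replicate 5 and 0.02 in control replicate 6. It was 0.475, 0.036, and 0.293 in the *Hif1aCKO* libraries. *Slc7a11* encodes xCT, the transporter that brings cystine into the cell in exchange for glutamate and so supplies cysteine for glutathione. It had 35.4 and 50.1 normalized counts in the controls and 421, 340, and 48.6 in *Hif1aCKO*. Hence 2 of the 3 *Hif1aCKO* libraries were several fold above the controls, and the third lay between them. Its log2 fold change was 2.65 (SE 0.82, 95% interval 0.77 to 4.53), with an unadjusted p-value of 0.011 and an adjusted p-value of 0.599 by edgeR. DESeq2 gave 2.66 with an adjusted p-value of 0.025. The gene was in a list the study drew from these same libraries, and so its direction is not independent evidence.

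The call of *Slc7a11* by DESeq2 depended on single libraries. Without *Hif1aCKO* replicate 3, the library with glial markers, the log2 fold change was 2.17 and DESeq2 gave no adjusted p-value. It was 2.46 with an adjusted p-value of 0.128 without *Hif1aCKO* replicate 4, 2.42 with 0.239 without control replicate 5, and 2.93 with 0.208 without control replicate 6. Only without *Hif1aCKO* replicate 5 did the call stay, at 3.15 with an adjusted p-value of 5.21e-09. Under edgeR, leaving out 1 library at a time gave between 2.18 and 3.15, with no call. *Hif1aCKO* replicate 4, which also had a high *Slc7a11* level, had 0 counts of *Fabp7* and of *Cdh19*.

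The mouse gene lies on the minus strand of chromosome 3, from 49892526 to 50443614 (GRCm38, GENCODE M21), with 13922 bases of annotated exon, and only 1.47% of its windows of 50 bases occur in other genes. *Slc7a11* is known as a target of ATF4, the factor of the amino acid response, which binds amino acid response elements. The 250 bases before its RefSeq start site (GRCm38.p6, chr3:50443614-50443863, minus strand) are shown because they held the only matches to TGATGNAA among the antioxidant genes. The capitals mark these matches, 1 on each strand, which begin 66 and 47 bases before the start site.
Slc7a11: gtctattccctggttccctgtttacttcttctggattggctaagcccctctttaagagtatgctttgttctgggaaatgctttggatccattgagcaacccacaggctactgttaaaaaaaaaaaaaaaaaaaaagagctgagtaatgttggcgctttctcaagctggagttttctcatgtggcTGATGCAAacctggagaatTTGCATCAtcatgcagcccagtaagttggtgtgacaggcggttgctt
Of the 44 genes, 38 had RefSeq windows of 300 bases (250 before and 50 after a start site), and 1 of 38 (2.63%) matched TGATGNAA on either strand, against 4.51% of all genes with such windows. *Sod3*, *Prdx6*, *Gclc*, *Gsr*, *Gsta4*, and *Hmox1* had none. A match is a description of the letters and not a binding site.

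The other 4 genes of the group were close to the spread between libraries. *Gss*, glutathione synthetase (chromosome 2, 155563181 to 155592810), had 126 and 152 normalized counts in the controls and 206, 165, and 164 in *Hif1aCKO*. All 3 *Hif1aCKO* values were higher, by a log2 fold change of 0.36 (SE 0.30, adjusted p-value 0.809 by edgeR). The gene shares 6.68% of its exonic bases with *Acss2* on the opposite strand, and reads of such partners cannot be told apart if strand was not used in counting. *Gsr*, glutathione reductase, had the highest level per kilobase of the group (74.6), with 120 and 198 normalized counts in the controls and 271, 153, and 286 in *Hif1aCKO*. *Hif1aCKO* replicate 4 lay between the controls, and the log2 fold change was 0.58 (SE 0.38, adjusted p-value 0.745 by edgeR), which was 0.26 without control replicate 5 and 0.98 without control replicate 6. *Gclm* and *Gclc*, the modifier and catalytic subunits of glutamate-cysteine ligase, which makes the first bond of glutathione, had log2 fold changes of 0.49 (SE 0.39) and 0.69 (SE 1.2). *Gclc* was sparse, from 1.04 normalized counts in control replicate 5 to 114 in *Hif1aCKO* replicate 5, so that its difference had no defined direction.

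**Figure D3:**
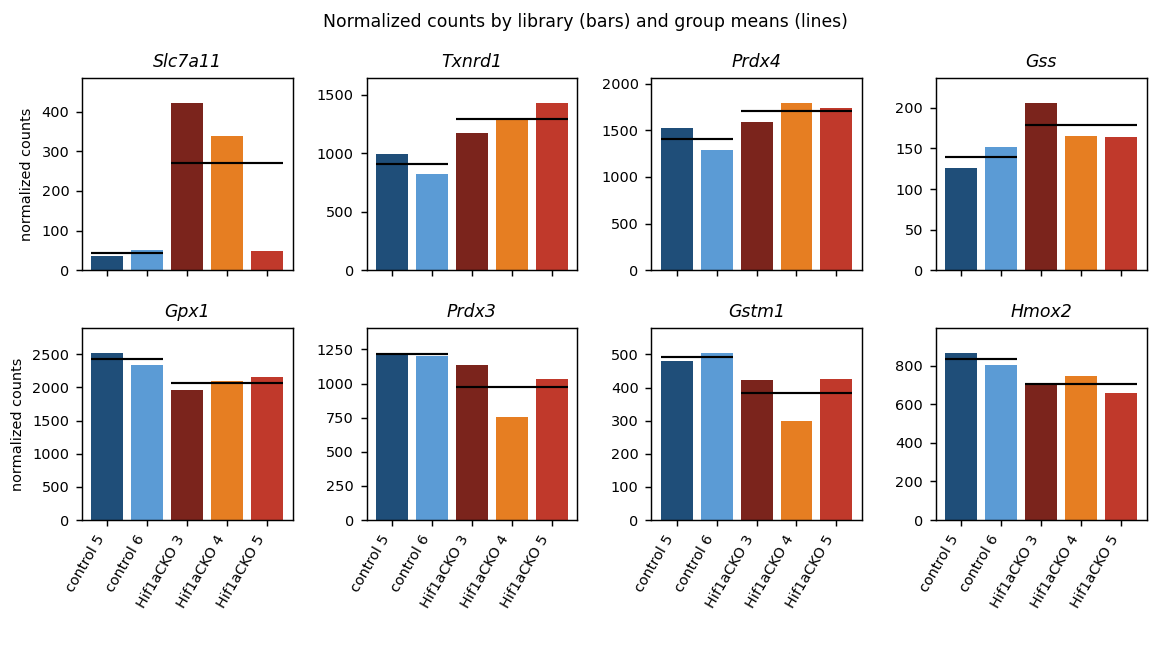
Normalized counts (y axis, starting at 0) by library for *Slc7a11* and the 7 genes whose groups did not overlap; black lines are group means of 2 control and 3 *Hif1aCKO* libraries. *Slc7a11* is high in *Hif1aCKO* replicates 3 and 4 and at control level in replicate 5, whereas the groups of the other genes are separated by small margins.

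In the thioredoxin system, *Txnrd1* had the clearest difference. It encodes cytosolic thioredoxin reductase, the selenoenzyme that keeps thioredoxin reduced with NADPH (chromosome 10, 82833951 to 82897712). It had 996 and 819 normalized counts in the controls and 1172, 1282, and 1429 in *Hif1aCKO*, so that the lowest *Hif1aCKO* library was above the highest control. The means were 907 ± 125 (SD, n = 2) and 1295 ± 129 (SD, n = 3). The log2 fold change was 0.51 (SE 0.17, 95% interval 0.11 to 0.91), with an unadjusted p-value of 0.018 and an adjusted p-value of 0.621 by edgeR. Its direction held when any 1 library was left out, with values between 0.37 and 0.66, and it was 0.58 without *Hif1aCKO* replicate 3. None of its windows of 50 bases occurs in another gene (0%).

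The partners of *Txnrd1* did not share this separation. *Txn1*, its main substrate, had 3048 and 2653 normalized counts in the controls and 3279, 2914, and 3331 in *Hif1aCKO*, with a log2 fold change of 0.16 (SE 0.14, 95% interval -0.16 to 0.47). Its groups overlapped. The mitochondrial pair was *Txn2*, with a log2 fold change of -0.008 (SE 0.14) and libraries within 1.09-fold of each other, and *Txnrd2*, with 0.44 (SE 0.31). *Txnip*, which binds and inhibits thioredoxin, ranged from 196 normalized counts in control replicate 6 to 483 in control replicate 5, a wider spread than between the groups (log2 fold change -0.054, SE 0.41). *Srxn1*, sulfiredoxin, which repairs overoxidized peroxiredoxins, had 131 and 112 normalized counts in the controls and 84.7, 23.0, and 190 in *Hif1aCKO*. *Hif1aCKO* held both its lowest and its highest value. *Msrb1*, a selenoprotein that repairs oxidized methionine, had a log2 fold change of -0.11 (SE 0.29).

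*Prdx2* was the most abundant peroxiredoxin, a family of cysteine peroxidases that remove hydrogen peroxide at low concentration. It had 9021 and 8658 normalized counts in the controls and 8898, 7609, and 8678 in *Hif1aCKO*, with a log2 fold change of -0.074 (SE 0.11) and a 95% interval of -0.33 to 0.18, the narrowest in the list. The groups overlapped. The interval, which was not adjusted for the number of genes, lay inside 1.5-fold in either direction. Of the 6 peroxiredoxins, 1 had a higher and 5 a lower mean in *Hif1aCKO*, with a median log2 fold change of -0.049.

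*Prdx4* and *Prdx3* were separated in opposite directions. *Prdx4*, the secretory pathway member (chromosome X, 155323918 to 155340754), had 1529 and 1287 normalized counts in the controls and 1591, 1791, and 1743 in *Hif1aCKO*, all above the controls. Its log2 fold change was 0.28 (SE 0.15, 95% interval -0.07 to 0.63, adjusted p-value 0.712 by edgeR). *Prdx3*, the mitochondrial member (chromosome 19, 60864051 to 60874556), had 1225 and 1204 in the controls and 1133, 755, and 1031 in *Hif1aCKO*, all below. Its log2 fold change was -0.32 (SE 0.20, 95% interval -0.78 to 0.14, adjusted p-value 0.728 by edgeR), and *Hif1aCKO* replicate 4 was the farthest from the controls. *Prdx1*, *Prdx5*, and *Prdx6* had log2 fold changes of -0.023, -0.11, and -0.019, with standard errors of 0.15, 0.16, and 0.13, and their groups overlapped.

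The superoxide dismutases were at similar levels in both groups. *Sod1*, the cytosolic copper and zinc enzyme, had 867 and 742 normalized counts in the controls and 828, 965, and 1100 in *Hif1aCKO*. *Hif1aCKO* replicate 3 lay between the controls, and the log2 fold change was 0.26 (SE 0.19, 95% interval -0.16 to 0.69). *Sod2*, the mitochondrial manganese enzyme, had 1333 and 1335 in the controls and 1453, 1288, and 1702 in *Hif1aCKO*, with a log2 fold change of 0.15 (SE 0.17). *Cat*, the peroxisomal catalase, ranged from 575 in *Hif1aCKO* replicate 4 to 931 in *Hif1aCKO* replicate 3, both beyond the controls at 781 and 895 (log2 fold change -0.24, SE 0.24).

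Among the glutathione peroxidases, *Gpx1*, the abundant cytosolic selenoenzyme (chromosome 9, 108338903 to 108340343), was lower in all *Hif1aCKO* libraries. It had 2522 and 2339 normalized counts in the controls and 1955, 2096, and 2165 in *Hif1aCKO*, with a log2 fold change of -0.23 (SE 0.13, 95% interval -0.53 to 0.07, adjusted p-value 0.715 by edgeR). Leaving out 1 library at a time gave values from -0.29 to -0.18. *Gpx4*, which reduces lipid peroxides in membranes and protects against ferroptosis, was at 0.12 (SE 0.15), and *Gpx3*, the secreted form, at -0.048 (SE 0.17), with overlapping groups for both. For *Gpx4*, 34.7% of the windows of 50 bases occur in other genes, foremost the pseudogene *Gpx4-ps2*, and reads that map to several places were not counted. *Gpx7*, of the endoplasmic reticulum, was at -0.26 (SE 0.35).

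The 4 glutaredoxins, which reduce disulfides with glutathione, had 2 higher and 2 lower means. *Glrx3*, a cytosolic member that handles iron-sulfur clusters and the highest of them per kilobase (368), had 1818 and 1851 normalized counts in the controls and 2024, 1634, and 1901 in *Hif1aCKO*. *Hif1aCKO* libraries lay on both sides of the controls, and the log2 fold change was 0.015 (SE 0.15). *Glrx5*, which serves mitochondrial iron-sulfur cluster assembly, had the largest value of the group, 0.62 (SE 0.42), from 116 and 126 normalized counts in the controls and 97.6, 221, and 239 in *Hif1aCKO*. *Hif1aCKO* replicate 3 was its lowest library. *Glrx* and *Glrx2* were at -0.36 (SE 0.28) and -0.29 (SE 0.21).

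All 4 glutathione S-transferases analysed, which couple glutathione to reactive compounds, had a lower mean in *Hif1aCKO*, but the median log2 fold change was only -0.088 and 0 were called. *Gstm5*, the highest of them per kilobase (1025), had 1351 and 1298 normalized counts in the controls and 1297, 1230, and 1371 in *Hif1aCKO*. The groups overlapped, with a log2 fold change of -0.027 (SE 0.15, 95% interval -0.36 to 0.31) that changed sign under upper-quartile normalization. *Gstm1* (chromosome 3, 108012255 to 108017973) had 481 and 505 in the controls and 424, 299, and 426 in *Hif1aCKO*, all below. Its log2 fold change was -0.36 (SE 0.23, adjusted p-value 0.728 by edgeR), and 18.9% of its windows of 50 bases occur in other genes, foremost *Gstm2-ps1*. *Gstp1* and *Gsto1* were at -0.056 (SE 0.17) and -0.12 (SE 0.25). *Gstp1* shares 33.7% of its windows, most with *Gstp2*, which was not analysed here.

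The 4 regulators had log2 fold changes between 0.098 and 0.33, with a median of 0.13, and their groups overlapped. *Park7*, which encodes DJ-1, an oxidation-sensitive protein, had the highest level per kilobase, with 3031 and 3096 normalized counts in the controls and 3457, 2973, and 3406 in *Hif1aCKO*. *Hif1aCKO* replicate 4 was below the controls, and the log2 fold change was 0.098 (SE 0.13, 95% interval -0.20 to 0.40). *Nfe2l2* had 134 and 80.7 in the controls and 133, 196, and 76.9 in *Hif1aCKO*, with a log2 fold change of 0.33 (SE 0.46) and a spread within each group as wide as that between them. *Keap1*, its inhibitor, was at 0.13 (SE 0.21), and *Nfe2l1*, a related factor, at 0.12 (SE 0.22).

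The enzymes of heme, quinone, and NADPH metabolism had 1 higher and 3 lower means, with a median log2 fold change of -0.38. *Hmox2*, the constitutive heme oxygenase (chromosome 16, 4726361 to 4766742), had 868 and 802 normalized counts in the controls and 706, 748, and 659 in *Hif1aCKO*, all below. Its log2 fold change was -0.25 (SE 0.16, adjusted p-value 0.745 by edgeR). Of its exonic bases, 40.23% overlap *Cdip1* on the opposite strand, where reads of both genes cannot be told apart if strand was not used in counting. *G6pdx*, which makes NADPH in the pentose phosphate pathway, had 523 and 399 in the controls and 307, 409, and 249 in *Hif1aCKO*. *Hif1aCKO* replicate 4 lay between the controls, and the log2 fold change was -0.52 (SE 0.27, unadjusted p-value 0.088, adjusted p-value 0.699 by edgeR). *Hmox1*, the inducible heme oxygenase, and *Nqo1*, the quinone reductase often used to read NRF2 activity, were scarce. *Hmox1* had at most 54.7 normalized counts in any library (log2 fold change -0.51, SE 0.59). *Nqo1* had 0 and 19.5 in the controls and 1.07, 4.99, and 65.2 in *Hif1aCKO*, and its 95% interval from -2.92 to 5.45 gives no direction.

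NRF2 with a small MAF protein binds antioxidant response elements. The letters TGACNNNGC on either strand occurred in a RefSeq window of 8 of the 38 antioxidant genes (21.1%), against 14% of all genes, and in 14.8% of the genes' 54 windows against 12.4% of all windows. The matches are shown with 10 bases on each side, 5′ to 3′ on the strand of the gene, because *Txnrd1*, *Gclm*, *Srxn1*, and *Prdx1* are known NRF2 targets, and the capitals mark the motif or its reverse complement.
Txnrd1, 92 bases before a start site (chr10:82859104-82859132, plus strand): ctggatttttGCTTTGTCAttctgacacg
Gclm, 134 bases before (chr3:122245413-122245441, plus strand): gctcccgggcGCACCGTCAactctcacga
Srxn1, 28 bases after (chr2:152105542-152105570, plus strand): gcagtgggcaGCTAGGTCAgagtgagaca
Prdx1, 133 bases before (chr4:116685456-116685484, plus strand): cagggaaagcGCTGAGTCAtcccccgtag
Sod1, 56 bases before (chr16:90220696-90220724, plus strand): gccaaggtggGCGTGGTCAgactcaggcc
Gstm5, 42 bases before (chr3:107895802-107895830, plus strand): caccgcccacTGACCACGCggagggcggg
G6pdx, 57 bases before (chrX:74428919-74428947, minus strand): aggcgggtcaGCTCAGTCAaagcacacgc
Nfe2l2, 240 bases before (chr2:75704885-75704913, minus strand): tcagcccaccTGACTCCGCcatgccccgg
The log2 fold changes of these 8 genes were 0.51 for *Txnrd1* (SE 0.17), 0.49 for *Gclm* (SE 0.39), 0.33 for *Nfe2l2* (SE 0.46), and 0.26 for *Sod1* (SE 0.19). They were -0.023 for *Prdx1* (SE 0.15), -0.027 for *Gstm5* (SE 0.15), -0.29 for *Srxn1* (SE 0.71), and -0.52 for *G6pdx* (SE 0.27). Of these 8 genes, only *Txnrd1* had groups that did not overlap and a 95% interval that excluded 0. Whether the genes moved together was not tested. The core letters of the hypoxia response element, ACGTG or GCGTG on either strand, occurred in windows of 27 of the 38 genes (71.1%) against 46.7% of all genes. Promoters differ in base composition, and the shares were not adjusted for it.

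Further genes of redox metabolism were examined in 6 lists, of which 114 genes were tested. By edgeR 0 of them were called (0% of all genes), 8 had an unadjusted p-value under 0.05 (beside 7.67% of all genes), and the groups did not overlap for 17 above (14.9%) and 11 below (9.65%) the controls, beside 12.9% of all genes in each direction. DESeq2 called 0 of them as well. Of the 24 genes tested among NRF2 partners and further NRF2 targets, 2 lay above (8.33%) and 5 below (20.8%) both controls, with a median log2 fold change of -0.054. *Idh1*, which makes cytosolic NADPH, had 7055 and 8640 normalized counts in the controls and 6557, 4629, and 5334 in *Hif1aCKO* (log2 fold change -0.51, SE 0.16, unadjusted p-value 0.014, adjusted p-value 0.618 by edgeR). The others were *Sqstm1*, *Blvrb*, *Abcc4*, and *Nqo2* below and *Maff* and *Pgd* above, named after their values were seen.

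ATF4 and the amino acid response form a pathway known to induce *Slc7a11*, though not necessarily the only one. Among the 25 genes tested of this list, 8 lay above both controls (32.0%) and 2 below (8%), beside 12.9% of all genes in each direction. The median log2 fold change was 0.033. *Psat1*, of serine synthesis, had 848 and 694 normalized counts in the controls and 1205, 1393, and 1087 in *Hif1aCKO* (log2 fold change 0.67, SE 0.18, unadjusted p-value 0.0063, adjusted p-value 0.598 by edgeR). *Slc7a5*, a transporter of large neutral amino acids, had 83.3 and 90.9 in the controls and 143, 222, and 170 in *Hif1aCKO* (log2 fold change 1.03, SE 0.34, adjusted p-value 0.618 by edgeR). *Atf4* itself had 905 and 969 in the controls and 1126, 1267, and 1055 in *Hif1aCKO* (log2 fold change 0.29, SE 0.16). Unlike *Slc7a11*, these 3 genes were above the controls in *Hif1aCKO* replicate 5 as well. The list was mixed, since *Pycr1* and *Aars* lay below both controls and other known ATF4 targets overlapped, such as *Asns* (log2 fold change -0.22, SE 0.23), *Chac1* (-0.65, SE 0.86), and *Trib3* (0.23, SE 0.82), all 5 named after their values were seen. *Slc3a2*, the heavy chain that carries xCT to the membrane, had 1656 and 1424 normalized counts in the controls and 1439, 1278, and 1316 in *Hif1aCKO* (log2 fold change -0.20, SE 0.15), and did not follow *Slc7a11*.

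The 4 remaining lists were small, and their shares stand beside 12.9% of all genes tested above and 12.9% below both controls. Of 19 genes tested of glutathione turnover and further transferases, 3 lay above (*Lancl1*, *Gstcd*, and *Mgst1*; 15.8%) and 1 below (*Ggt7*; 5.26%), with a median log2 fold change of -0.047, and *Gstk1* had an unadjusted p-value of 0.048 with overlapping groups. Of 23 genes of selenoprotein synthesis, other selenoproteins, and methionine sulfoxide reductases, 2 lay above (8.70%, *Pstk* and *Selenoo*) and 0 below, with a median of -0.033. Only the synthesis factors of this list are genes on which *Txnrd1*, *Gpx1*, and *Gpx4* depend. *Selenoo*, a mitochondrial selenoprotein, had 140 and 122 normalized counts in the controls and 180, 345, and 249 in *Hif1aCKO* (log2 fold change 0.98, SE 0.34, adjusted p-value 0.621 by edgeR). Of 13 genes of mitochondrial NADPH and coenzyme Q, 1 lay above (*Idh2*; 7.69%) and 0 below, with a median of -0.079. *Idh2*, the mitochondrial counterpart of *Idh1*, had 1209 and 1126 in the controls and 1438, 1578, and 1632 in *Hif1aCKO* (log2 fold change 0.41, SE 0.15, adjusted p-value 0.621 by edgeR), opposite in sign to *Idh1*. *Nnt*, the mitochondrial transhydrogenase that is defective in C57BL/6J, had only 21 and 17 counts in the controls and 3, 1, and 19 in *Hif1aCKO* replicates 3, 4, and 5.

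Of the 10 oxidant sources tested, 3 lay below both controls (30.0%) and 1 above (*Nox4*, 10.0%), beside 12.9% of all genes in each direction. Their median log2 fold change was -0.41. *Maoa*, the monoamine oxidase that yields hydrogen peroxide from noradrenaline, had 7749 and 9586 normalized counts in the controls and 7556, 4967, and 6128 in *Hif1aCKO* (log2 fold change -0.48, SE 0.18, adjusted p-value 0.621 by edgeR). Its relative *Maob* had 944 and 904 in the controls and 739, 629, and 774 in *Hif1aCKO* (-0.37, SE 0.17). *Nos1*, neuronal nitric oxide synthase, had 154 and 107 in the controls and 53.6, 23.0, and 72.0 in *Hif1aCKO* (-1.39, SE 0.52, adjusted p-value 0.621 by edgeR). All 3 were below the controls in every *Hif1aCKO* library, none was called, and *Maob* and *Nox4* were named after their values were seen. The sympathetic neuron markers, which also include genes of catecholamine metabolism, lay below both controls for 10 of 19 genes (52.6%), beside the same 12.9%. The part of this in the oxidant sources was not tested.

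**Figure D4:**
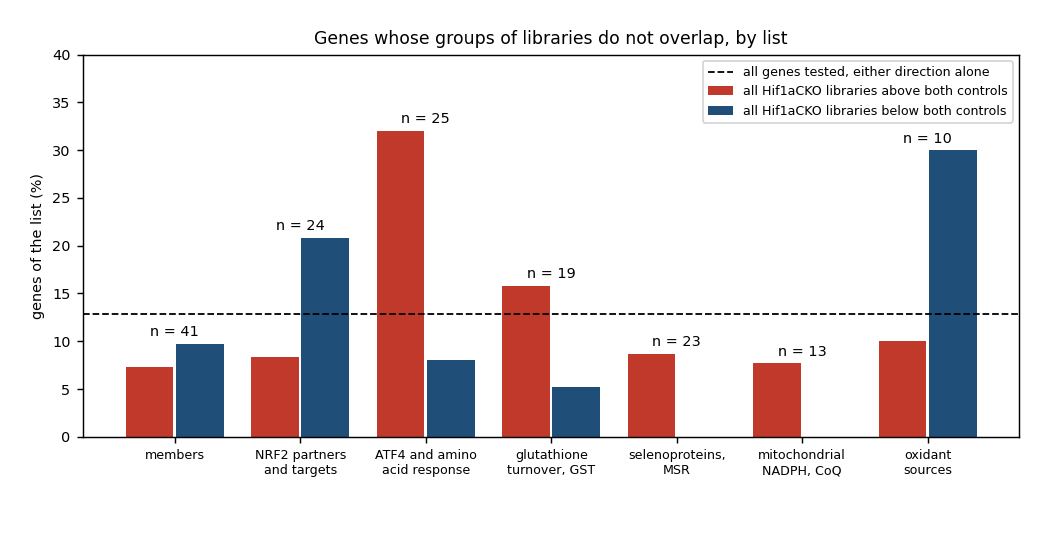
Percent of the genes tested in each list (y axis, starting at 0; n above the bars) whose 3 *Hif1aCKO* libraries all lie above (red) or all below (blue) both controls, with the 12.9% of all genes tested as a dashed line. The 41 antioxidant genes are under the line in both directions, the ATF4 list is over it for higher genes (32.0%), and NRF2 partners (20.8%) and oxidant sources (30.0%) are over it for lower genes.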

How the data were processed

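The deposited values are raw counts of reads per gene, made by the authors, who trimmed reads (cutadapt 1.18), removed ribosomal and vector sequence (Bowtie 1.2.2), mapped to GRCm38 (STAR 2.7.0c), and counted without multi-mapping reads. The study counted with the default parameters of Rsubread and does not name a strand setting. Names and lengths came from GENCODE M21, in which 29 identifiers were not found, and promoters from RefSeq (GRCm38.p6).

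All 20224 genes entered 1 fit with edgeR 4.0.16 (R 4.3.3), using TMM, filterByExpr, the quasi-likelihood test on genotype, and Benjamini-Hochberg adjustment over 15032 genes. The test was tried on simulated data. Normalized counts were scaled to the mean effective library size (8747702). SDs are over libraries. Alternatives included limma-voom (limma version 3.58.1), DESeq2 (version 1.42.0), other normalizations and filters, a term for *Xist*-positive libraries, and leaving out each library. Counts of each pair of libraries differed by more than sampling noise (chi-square per degree of freedom 15.2 to 38.5). Figures were drawn with matplotlib (version 3.10.9).

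The genes, lists, and tests were chosen with earlier results of these data known. Full statistics are given for genes with an unadjusted p-value under 0.05, groups that did not overlap, or the highest level per kilobase of a role group, and in other lists for up to 3 genes with an unadjusted p-value under 0.05 and a mean of at least 50. Sensory neuron and dissociation response markers summed to 127 to 172 and 336 to 476 CPM, and chromaffin markers to 2850 to 3550. These sums overlapped between the groups in each list. Gene by gene, 1 of 6 chromaffin markers tested lay above (16.7%) and 2 below (33.3%) both controls, beside 12.9% of all genes in each direction. For the 13 dissociation response markers tested it was 1 above and 1 below (7.69% each), and for the 3 sensory neuron markers tested 0.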

Additional observations from a re-analysis of the deposited data

How the results depend on the processing

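No paired analysis was possible because the groups share only replicate number 5. No antioxidant gene was called under RLE or upper-quartile normalization, limma-voom, edgeR's likelihood ratio test, other count filters or thresholds, the *Xist* term, or edgeR with any 1 library left out. DESeq2 called 1, *Slc7a11* (log2 fold change 2.66). With DESeq2 and 1 library left out, which was chosen after seeing the data, 0 to 1 were called, and the call stayed without *Hif1aCKO* replicate 5 alone (3.15). The number of genes above both controls was 6 under upper-quartile normalization, beside 14.3% of all genes. With 1 library left out it ran from 4 to 12, and the number below from 6 to 10, while 18.7% to 25.2% of all genes lay above and 18.7% to 25.5% below, since fewer libraries overlap less. The median log2 fold change ran from -0.038 to 0.067 with edgeR and from -0.040 to 0.081 with DESeq2, highest without *Hif1aCKO* replicate 4 in both. Changes of sign were near 0: *Gstm5* at 0.0074 (upper-quartile) and, without *Hif1aCKO* replicate 4, at 0.0096 (edgeR) and 0.0097 (DESeq2), and *Glrx3* at -0.00085, -0.055, and -0.0035 with edgeR and -0.007, -0.059, and -0.0052 with DESeq2, without control replicate 5, *Hif1aCKO* replicate 3, and *Hif1aCKO* replicate 5. Over all edgeR fits with 1 library left out, *Gstm5* ran from -0.066 to 0.0096 and *Glrx3* from -0.055 to 0.096. The cause was not tested. Of 328 alternative values in all, 303 were classed as the same. For the fold change of a gene this means an unchanged sign and call, not an unchanged size. *Gsr*, for example, was classed so at 0.26 without control replicate 5 and at 0.98 without control replicate 6, against 0.58 in the main fit. The *Xist* term does not enter the counts of groups that overlap and gave none. The scarcest genes tested, *Nqo1*, *Gclc*, and *Hmox1*, had standard errors of 1.8, 1.2, and 0.59, and the cause of their spread was not tested.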
